A study of Canis lupus familiaris with 6 samples.

Results

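In the canine melanoma line CMM10, 114 coding genes gained more intron reads than exon reads, or lost fewer, in hypoxia against normoxia. They were taken from 9350 eligible genes: protein-coding, outside the mitochondrial chromosome, and with at least 300 exon reads and at least 300 uniquely mapped intron reads summed over the 6 libraries. For each gene the intron and the exon reads of each library were scaled to CPM (counts relative to the library's total of the same read type), and the log2 ratio of the hypoxia mean to the normoxia mean was taken for both. A gene entered when the intron log2 ratio exceeded the exon log2 ratio by at least 0.5. That excess is called the intron excess below. The values that chose these genes are therefore given as a description, without a test. The files hold 29822 genes, of which 19947 are protein-coding.

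CMM10 is an established cell line from a canine malignant melanoma. The groups were 3 libraries of cells labelled hypoxia and 3 of cells labelled normoxia, all of 1 line, and the labels give no oxygen level, no duration and no word on whether the libraries came from separate cultures. The spread between them may thus be technical. The RNA was poly(A)-selected and sequenced from both ends. Because the library kit keeps no strand information, a read from a gene and one from an overlapping or antisense gene cannot be told apart. The purpose stated in the series title is to find genes tied to metabolism that hypoxia induces in canine tumours.

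Exon reads of a poly(A)-selected library come mostly from spliced mRNA. Intron reads come from unspliced precursor, from introns that stay in the mature transcript, and from any other transcript that crosses the same ground, such as an antisense RNA, an unannotated non-coding RNA or read-through from a neighbouring gene. Cells at low oxygen stabilise the alpha subunits of hypoxia-inducible factor (HIF), which switch on genes of glycolysis, angiogenesis and pH control.

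The libraries held between 23196647 and 28804337 gene reads, of which between 17378046 and 21926724 were exon reads and between 5149113 and 6220472 unique intron reads. Intron reads made up 24.6% ± 0.67 of gene reads in hypoxia and 24.2% ± 0.77 in normoxia (SD, n = 3 each, exact two-sided permutation p = 0.6, where the smallest possible p is 0.1). Of 10 melanocyte markers 6 reached 1 CPM, among them SOX10 and MITF, while MLANA, TYRP1 and TYR stayed below it, MC1R had no row and none was at 0. The summed melanocyte level was 198 to 210 CPM in normoxia and 225 to 234 in hypoxia. Leukocyte markers summed to at most 1.503 CPM in any library, with 0 of 4 reaching 1. Epithelial markers summed to 1196 to 1240 in normoxia and 4279 to 4978 in hypoxia, fibroblast markers to 4333 to 4597 and 5404 to 5626, and endothelial markers, of which only VWF reached 1, to 5.52 to 6.77 and 13.5 to 16.2. Most of the epithelial sum was KRT14, with a mean of 2623 CPM against 222 for CDH1, 118 for EPCAM and 1.29 for KRT18. KRT5 and KRT8 had no row. Most of the fibroblast sum was COL1A2, with a mean of 4712 CPM against 273 for COL1A1, 2.19 for DCN and 1.17 for PDGFRB. The part of these markers in the results was not tested.

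The label of the gene set holds only in part. Intron reads were higher in hypoxia for 101 of the 114 genes, against 3196 of the 9350 eligible genes (34.2%). Exon reads were lower for 82 (71.9%) and higher for 32, against 5761 eligible genes with lower exon reads (61.6%). In 45 genes the intron log2 change was at least 0.5 while the exon change stayed within 0.5 of 0, and in 10 both were at least 0.5. In 28 genes the exon reads were lower by 0.5 or more while the intron reads stayed within 0.5 of 0, and in another 28 both stayed within that range. Only 2 genes had intron reads up and exon reads down by at least 0.5 each, and in 1, DCAF17, intron reads were lower by more than 0.5 as well. The set thus mixes genes with more intron reads in hypoxia and genes with fewer exon reads at a steady intron level.

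**Figure D1:**
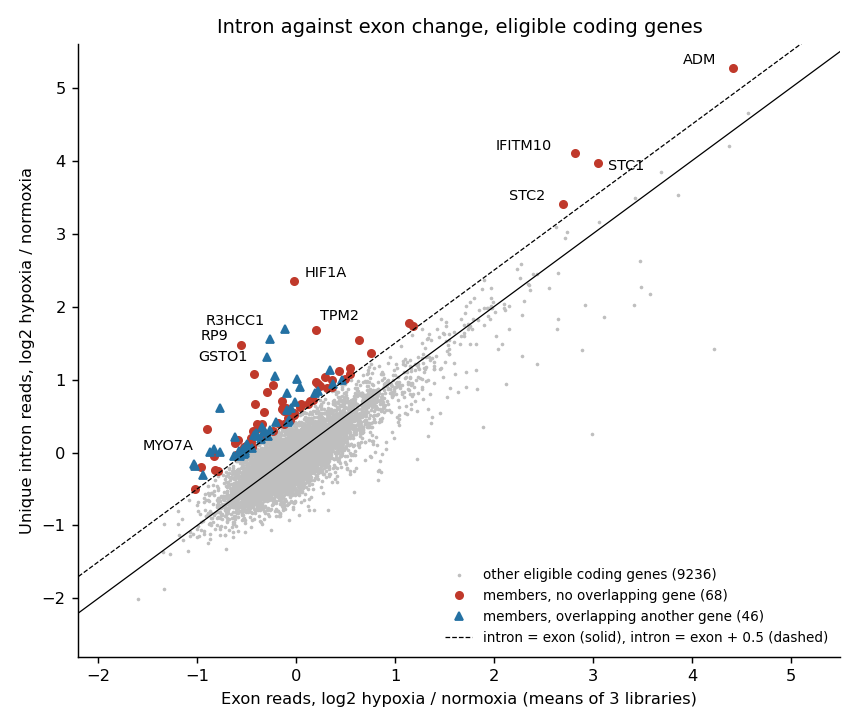
Log2 change of unique intron reads (vertical axis) against log2 change of exon reads (horizontal axis) for the 9350 eligible coding genes, hypoxia over normoxia, means of 3 libraries. The 114 selected genes lie above the dashed line by construction, with HIF1A far above it at an exon change of -0.02 and ADM, STC1, STC2 and IFITM10 at the top right.

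The median intron excess of the 114 genes was 0.63 on the log2 scale, ranging from 0.50 to 2.37, and 14 genes reached 1. Over all eligible genes the median was -0.05. The median log2 change of the 114 genes was 0.49 in intron reads, -0.25 in exon reads, -0.28 in reads across exon-exon junctions (110 genes with a value) and 0.01 in gene reads, which sum both types. Over all eligible genes the same medians were -0.13 for intron reads, -0.08 for exon reads and -0.10 for junction reads. Scaling by TMM factors within each read type, which limit the weight of a few abundant genes, lifted the intron changes by 0.10 and the exon changes by 0.07 at the median of the eligible genes. With it 107 of the 114 had higher intron reads and 75 had lower exon reads. The intron sign turned for HNRNPAB, MYO7A, CMSS1, CCNB3, DDX39A and NPR1, and the exon sign for ISOC2, NR1H3, HIF1A, CCDC151, GREB1L, PIPOX and EIF1.

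The median log2 ratio of intron to exon CPM over the 114 genes was 1.45, 1.54 and 1.56 in the hypoxia libraries and 0.62, 0.72 and 0.81 in the normoxia libraries. Over all eligible genes it lay between 0.32 and 0.34 in hypoxia and between 0.38 and 0.39 in normoxia, so the shift of the whole set of genes was small and went the other way. The ratio was higher in every hypoxia library than in every normoxia library for 100 of the 114 genes, where 8.25% of all eligible genes showed this. Intron reads alone separated in that direction for 71, against 17.5% of eligible genes. Both follow in part from how the genes were chosen.

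HIF1A encodes the oxygen-regulated alpha subunit of HIF-1 and had the greatest intron excess of the 9350 eligible genes. It lies on chromosome 8 from 36614045 to 36656692 (CanFam3.1, plus strand, 16 annotated exons) and overlaps no other gene in the files. Its intron reads were 251, 260.3 and 266 CPM in hypoxia and 48.6, 51.0 and 52.8 in normoxia. Exon reads stood at 329, 329 and 354 in hypoxia and 347, 332 and 350.1 in normoxia.

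The intron values of HIF1A left a wide gap between the groups, whereas the exon values overlapped. The intron fold was 5.10 and the exon fold 0.984, an excess of 2.37 with an SD of the library ratios of 0.04 in hypoxia and 0.07 in normoxia (n = 3 each). Reads across its exon-exon junctions also gave a log2 change of -0.02. Intron reads took 18.2% ± 0.487 of the gene's reads in hypoxia and 4.06% ± 0.256 in normoxia (SD, n = 3 each). Per kb, the introns held 145 reads and the exons 10498 over the 6 libraries, so the introns were thinly covered beside the exons. A RefSeq model of the gene, on another dog assembly, overlaps the long non-coding RNA LOC102154067, an overlap not annotated in the files, and its part in the intron reads was not tested.

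A few genes known as HIF targets carried an intron excess on top of a strong exon gain. ADM encodes adrenomedullin, a vasodilator peptide, and lies on chromosome 21 from 33471623 to 33474495 (plus strand). Its intron reads were 109, 107 and 104 CPM in hypoxia and 2.89, 2.27 and 3.11 in normoxia. In exons ADM had 229.7, 225 and 239 CPM in hypoxia and 12.4, 9.29 and 10.8 in normoxia. Both read types separated fully, with a 38.6-fold intron and a 21.3-fold exon difference. Its junction reads changed by 4.94 on the log2 scale, between the exon value of 4.41 and the intron value of 5.27.

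STC1 and STC2 encode stanniocalcins, secreted glycoproteins linked to calcium and phosphate handling. STC1 lies on chromosome 25 from 33615451 to 33625218 and was not in any of the gene lists used here. STC1 intron reads were 63.1, 57.4 and 59.5 CPM in hypoxia and 3.97, 2.45 and 5.05 in normoxia, and its exon reads were 40.7, 40.4 and 43.8 against 4.29, 5.94 and 4.89. The groups did not overlap in either type, and the excess was 0.93 with an SD of 0.72 between the normoxia ratios. Without normoxia replicate 2 it was 0.55.

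STC2 lies on chromosome 4 from 39152503 to 39162343. It had 34.8, 33.0 and 31.1 intron CPM in hypoxia and 2.53, 3.67 and 3.11 in normoxia. STC2 exon reads were 5.34, 7.14 and 6.27 in hypoxia and 0.808, 0.535 and 1.55 in normoxia. Both types were clearly higher in hypoxia, but the ratio of intron to exon reads overlapped between the groups. The excess of 0.71 became 0.19 without normoxia replicate 3 and 1.14 without normoxia replicate 2, so single libraries decide whether STC2 belongs to the set.

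Most HIF targets changed alike in intron and exon reads. Of 49 eligible genes in a list of HIF targets and glycolytic enzymes 2, ADM and STC2, were selected (4.08%), against 1.22% of all eligible genes. The list's median difference between intron and exon change was -0.01, with a median intron change of 1.87 and exon change of 1.97. CA9, the membrane carbonic anhydrase, changed by 3.85 in intron and 3.69 in exon reads, and VEGFA, the angiogenic growth factor, by 1.73 and 1.74. Another 5 genes of the list leaned at least 0.5 towards exon reads: DDIT4, SLC2A3, ALDOC, RORA and KDM4B. DDIT4, an mTORC1 inhibitor, had an intron change of 1.42 against an exon change of 4.23. Of 10 eligible HIF subunits and regulators 1, HIF1A, was selected, and the median difference of that list was -0.06. EPAS1, which encodes HIF-2 alpha, had an intron change of 0.53 and an exon change of 0.69.

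**Figure D2:**
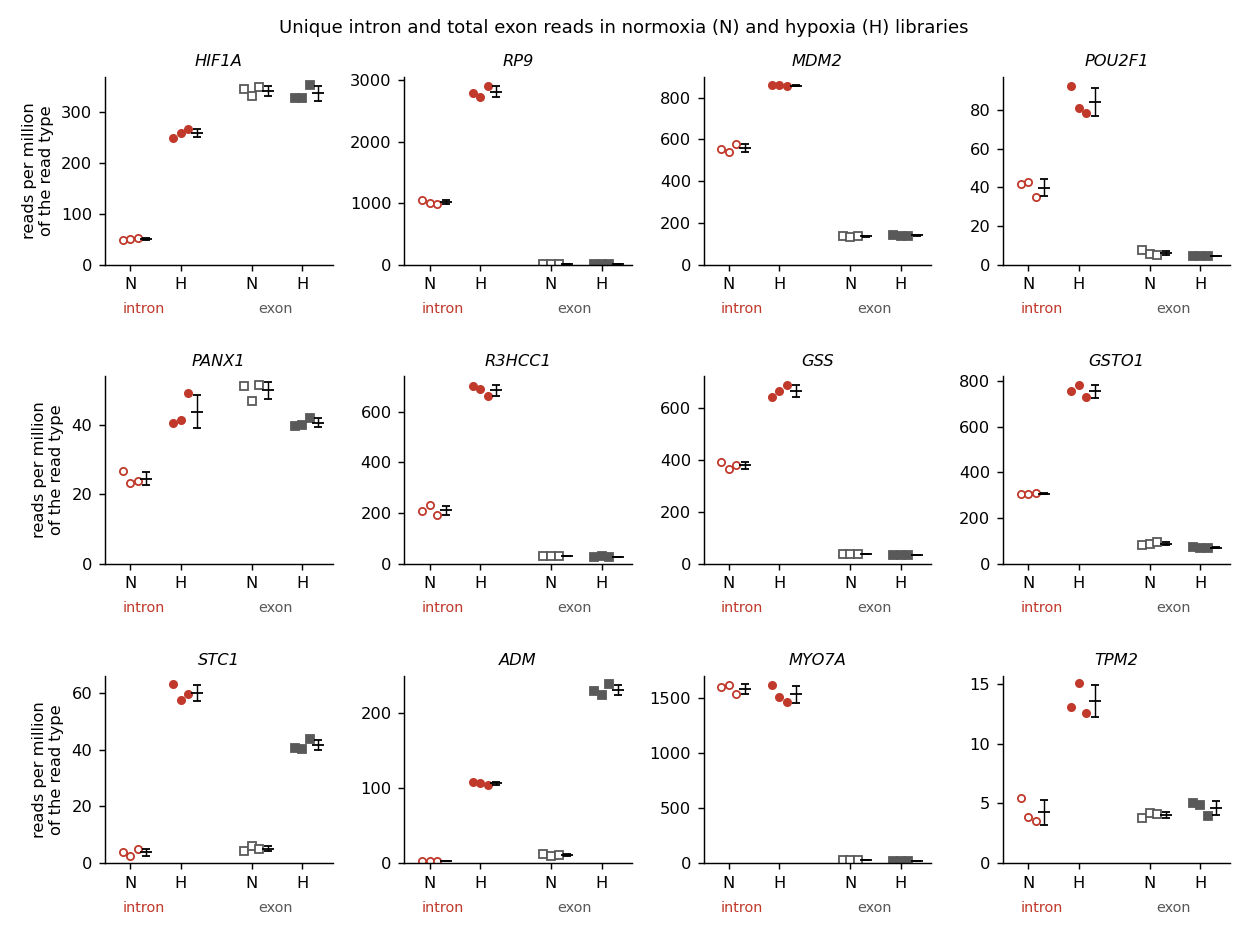
Unique intron reads (circles) and exon reads (squares) in CPM of the read type in the 3 normoxia (N, open) and 3 hypoxia (H, filled) libraries for 12 genes, each panel with its own linear axis from 0. Bars show mean and SD; intron reads of HIF1A, RP9, MDM2 and R3HCC1 separate while their exon reads lie close together or lower, and MYO7A shows the reverse, with even introns and lower exons in hypoxia.

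Outside the HIF pathway, the genes with the greatest excess and no annotated overlap came from several functions. RP9, named for a form of retinitis pigmentosa, lies on chromosome 14 from 45167842 to 45187672 (minus strand, 7 exons). RP9 intron reads were 2796, 2734 and 2905 CPM in hypoxia and 1052, 1009 and 987 in normoxia, a 2.77-fold difference. Exon reads stood at 7.25, 7.33 and 6.27 in hypoxia and 11.96, 9.34 and 9.44 in normoxia. The introns were higher and the exons lower in every hypoxia library.

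Intron reads were 99.2% of all RP9 reads in hypoxia and 96.6% in normoxia, and per kb the introns held 2.28 times the exon density (68426 intron and 1037 exon reads). Introns read more deeply than exons were rare, in 4 of 113 selected genes with an intron length and 114 of 9210 eligible ones. The RefSeq model of RP9 overlaps the coding gene LOC106559694, an overlap not annotated in the files. GSTO1, an omega-class glutathione transferase on chromosome 28 from 16569066 to 16619880, had a like split at a higher exon level. It had 754, 784 and 727 intron CPM in hypoxia and 305, 304 and 308 in normoxia, and 74.0, 70.9 and 68.2 exon reads against 81.8, 85.9 and 93.9. Its only annotated overlap is GSTO2, with 6 exon reads in all, so the files hold next to no exon signal of that partner.

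RP9 and GSTO1 show how a call on gene reads can differ from one on exon reads. By edgeR's quasi-likelihood test at a Benjamini-Hochberg adjusted p below 0.05, both were called higher in gene reads and lower in exon reads. Over all genes tested in both ways 3 genes had that pair of calls (0.0223% of 13453). In gene reads 51 of the 114 were called higher (24.5% of all 15397 tested) and 22 lower (24.4%). In exon reads 24 were called higher (24.4% of 13458) and 45 lower (23.8%), and 27 were called higher in gene reads without being called higher in exon reads (3.60%). The calls on intron reads used total intron reads, whereas the selection used unique ones. In total intron reads 72 were called higher (18.7% of 13858) and 4 lower (15.7%). A fit of the total intron against the exon change called 75 higher (2.67% of 12265) and 0 lower (2.99%). With unique intron reads 73 were called higher (2500 of all 13119) and 2 lower (2100), and the fit called 77 higher (321 of 11625) and 0 lower (312). On total intron reads the fitted excess was lowest for CMSS1 (0.15), HNRNPAB (0.17), MAST4 (0.20) and a gene without a symbol (0.28). Intron reads were called higher and exon reads lower for 14 (0.261% of 12265), and both higher for 23 (14.8%). Since the same contrast chose the genes, these shares describe them and nothing is read from them.

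POU2F1 encodes OCT1, a widely expressed octamer-binding transcription factor, and spans chromosome 7 from 30986181 to 31162246. Its intron reads were 92.6, 81.2 and 78.6 CPM in hypoxia and 41.5, 43.0 and 35.0 in normoxia. Its exon reads were few, at 4.33, 4.34 and 4.61 against 7.32, 5.45 and 5.12. Both types separated the groups, in opposite directions, for an excess of 1.51.

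PANX1 encodes pannexin 1, a channel that releases ATP, on chromosome 21 from 6668269 to 6715858. It had 40.4, 41.5 and 49.2 intron CPM in hypoxia and 26.6, 23.2 and 23.7 in normoxia, and 39.8, 40.0 and 42.0 exon reads against 51.2, 47.0 and 51.5. Intron reads were higher and exon reads lower in every hypoxia library, and the ratio had an SD of 0.11 and 0.09. CIAO3, a factor of cytosolic iron-sulfur assembly on chromosome 6 from 39846856 to 39853956, followed the same course with 77.5, 79.6 and 75.1 intron reads against 42.3, 50.8 and 53.8, and 28.0, 28.0 and 27.2 exon reads against 36.2, 36.8 and 37.6. Its excess was 1.07, and the convergent gene HAGHL, whose exon reads changed by 0.45, ends 82 bases away.

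PLS1 encodes plastin 1, an actin-bundling protein, on chromosome 23 from 38243024 to 38347202. Its intron reads were 20.6, 21.1 and 14.0 CPM in hypoxia and 10.7, 11.0 and 7.57 in normoxia, while its exon reads were 16.8, 19.2 and 18.9 against 21.1, 20.05 and 23.3. The ratio spread more than for PANX1, with an SD of 0.38 and 0.41, on 504 intron reads in all. RNF151, a RING-finger gene on chromosome 6 from 38963034 to 38964999, rested on 313 intron and 364 exon reads. Its intron values of 8.05, 11.7 and 10.03 overlapped those of normoxia at 7.59, 6.99 and 9.32, and its exon values were 2.83, 1.82 and 1.67 against 3.38, 4.82 and 3.63. Its excess of 1.22 thus came mostly from the exon side.

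IFITM10 belongs to the interferon-induced transmembrane family and lies on chromosome 18 from 45999103 to 46006202. It had 38.0, 46.6 and 42.5 intron CPM in hypoxia and 1.81, 3.67 and 1.94 in normoxia, and 5.61, 6.07 and 5.54 exon reads against 0.959, 0.681 and 0.806. Both were higher in every hypoxia library, 17.1-fold and 7.04-fold, and per kb the introns were covered 1.19 times as deeply as the exons. With 413 exon reads in all, its excess of 1.28 was 0.97 without normoxia replicate 1 and 1.80 without normoxia replicate 2. CTSD, upstream on the same strand at 4238 bases, had an exon change of 0.87.

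TPM2, a tropomyosin of the actin filament on chromosome 11 from 52212401 to 52219923, sits tail to tail with CA9, which ends 1134 bases away. TPM2 had 13.0, 15.1 and 12.5 intron CPM in hypoxia and 5.42, 3.84 and 3.50 in normoxia. Its exon reads were 5.06, 4.90 and 3.97 against 3.79, 4.23 and 4.09, so only the introns separated. CA9 exon reads changed by 3.69 on the log2 scale, and whether reads past the end of CA9 enter the TPM2 introns was not tested.

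Overlap with another annotated gene, which the selection did not use, was more frequent among the 114 genes. It was found for 46 of 114 (40.4%), against 2536 of 9350 eligible genes (27.1%) and 69 of the 225 genes whose difference was -0.5 or lower (30.7%), called the exon-excess genes here. For overlap with a coding gene the shares were 37.7%, 21.0% and 24.9%. Overlap with at least 2 genes was found for 12.3%, 7.39% and 9.78%. The overlapping and the non-overlapping members had a like median excess, 0.63 and 0.66.

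For 29 of the 46 the partner, taken as the overlapping gene with the most exon reads, had at least 300 exon reads. The partner's exon change lay nearer to the member's intron change than the member's own exon change did in 23 of 29 (79.3%). Among the 1317 eligible genes with such a partner this held for 500 (38.0%), and among 40 exon-excess genes for 31. The selection keeps a member's own exon change at least 0.5 away, which raises this share by itself. Taken by itself, without the member's own values, the partner's exon change had a median of 0.09 over the 29 pairs, against -0.10 over the 1317 and -0.14 over the 40. It was at least 0.5 in 7 of 29 (24.1%), 81 of 1317 (6.15%) and 5 of 40 (12.5%).

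R3HCC1, a gene with an R3H nucleic-acid-binding domain, gave the closest match. It lies on chromosome 25 from 34160856 to 34206970 (minus strand), and 54.5% of its span is shared with LOXL2 on the other strand (34126335 to 34185969). LOXL2 encodes a collagen cross-linking lysyl oxidase and is in the HIF target list. R3HCC1 intron reads were 702, 687 and 659.5 CPM in hypoxia and 208, 230.0 and 193 in normoxia. Its exon reads were 26.8, 29.025 and 26.6 against 29.2, 30.1 and 30.1.

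The R3HCC1 intron change of 1.70 stood beside a LOXL2 exon change of 1.69, while its own exon change was -0.12. LOXL2 exon reads were 627, 631 and 608 CPM in hypoxia and 189, 189 and 199 in normoxia. GSS, which encodes glutathione synthetase, showed the same layout on chromosome 24 from 23901045 to 23997286, with 45.5% of its span shared with ACSS2, an acetyl-CoA synthetase, on the other strand. GSS had 640.2, 664 and 687 intron CPM against 389.8, 364 and 379, and 34.3, 33.4 and 35.3 exon reads against 36.4, 36.3 and 37.0. Its intron change was 0.81, its own exon change -0.09 and the ACSS2 exon change 0.84. With a kit that does not mark the strand, reads of the 2 genes of such a pair cannot be told apart within the shared bases.

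**Figure D3:**
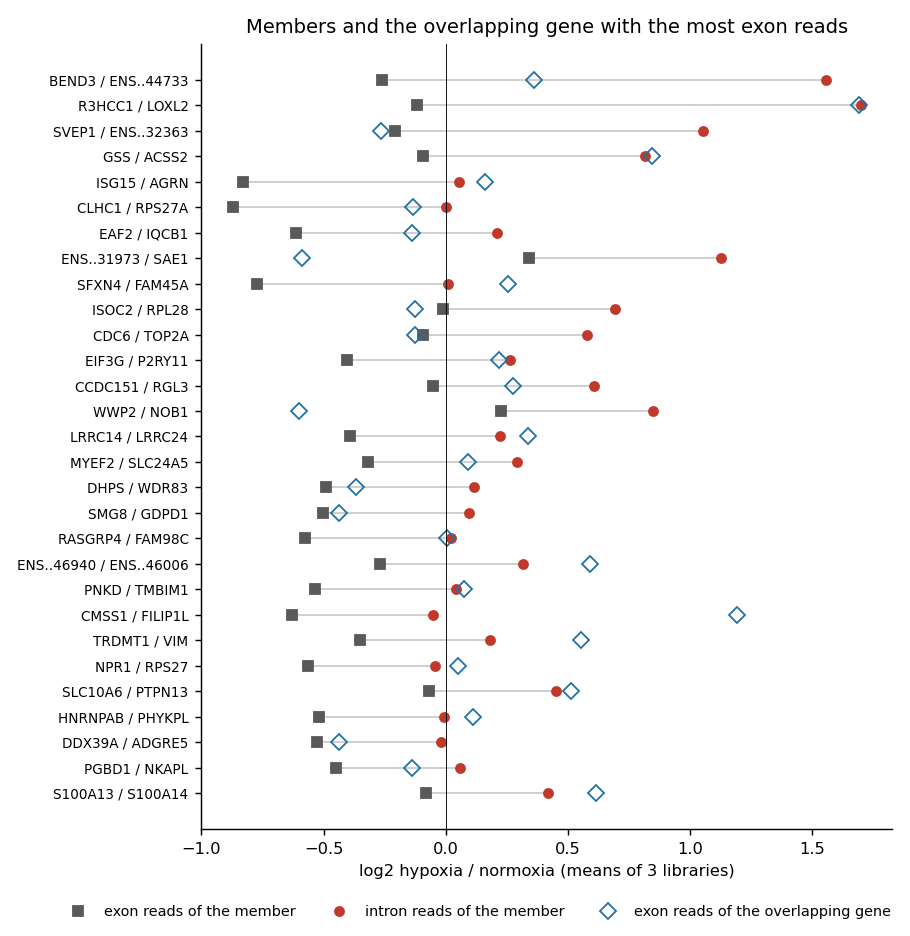
Log2 change, hypoxia over normoxia, of the exon reads (squares) and intron reads (circles) of the 29 selected genes with an overlapping gene of at least 300 exon reads, and of that gene's exon reads (diamonds); genes without a symbol carry shortened identifiers. The diamond lies nearer to the circle than the square does in 23 of 29, as for R3HCC1 with LOXL2 and GSS with ACSS2, and far from it for WWP2 with NOB1.

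Some pairs, chosen after their values were seen, show the range. TRDMT1, an RNA cytosine methyltransferase, had an intron change of 0.18 and an exon change of -0.35, beside an exon change of 0.55 for VIM, the vimentin gene. SLC10A6 had 0.45 and -0.07 beside 0.51 for PTPN13, a protein tyrosine phosphatase. WWP2, a ubiquitin ligase, did not follow, with 0.85 and 0.22 beside -0.60 for NOB1. CDC6, the replication licensing factor, had 0.58 and -0.09 beside -0.13 for TOP2A, its partner with the most exon reads. RARA, in the same stretch of chromosome 9, changed by 0.76 on 11324 exon reads. In the count of 29 pairs CDC6 stands with TOP2A alone, whose change was not the nearer one.

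The remaining overlapping genes with a high excess had partners with little or differing signal. BEND3, a BEN-domain repressor on chromosome 12 from 64306140 to 64322725, had 19.2, 19.1 and 19.1 intron CPM in hypoxia and 5.06, 8.21 and 6.21 in normoxia, with an excess of 1.82 and a partner exon change of 0.36. ENPEP, the aminopeptidase that cleaves angiotensin II, lies on chromosome 32 from 30553182 to 30638522 and had 53.0, 63.5 and 59.2 intron reads against 36.3, 42.1 and 36.3 and 15.8, 13.4 and 15.0 exon reads against 24.0, 23.9 and 27.4. In both genes the intron values did not overlap between groups, and the ENPEP partner had 19 exon reads in all. SVEP1, a large extracellular matrix protein gene on chromosome 11 from 65289087 to 65637974, had an intron change of 1.05 and an exon change of -0.21, beside -0.26 for its partner. BRICD5, on chromosome 6 from 38758254 to 38761735, had an intron change of 1.00 at an exon change of 0.01, an intron density 3.77 times that of its exons, and an annotated overlap only with a microRNA that had 0 exon reads. Its junction reads, in contrast, changed by 2.48, more than its intron reads, so the excess does not hold for BRICD5 when junction reads stand in for exon reads. Its RefSeq model overlaps MLST8, whose exon reads changed by -0.46.

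Counting error of the intron reads is smallest for the genes with the most of them, though the spread between libraries was not always smaller in these genes. Their excess also rests on exon reads, which were far fewer in RP9 (68426 intron and 1037 exon reads) and MYO7A (54313 and 2704). MDM2, the ubiquitin ligase that restrains p53, lies on chromosome 10 from 10893719 to 10962596 and overlaps no other gene in the files. MDM2 had 861, 859 and 853 intron CPM in hypoxia and 555, 539 and 578 in normoxia. Its exon reads were 141, 139 and 139 against 137, 132 and 138. The introns left a wide gap and the exons a narrow one, and the ratio had an SD of 0.01 and 0.03 for an excess of 0.58. Intron reads were 63.9% of MDM2 reads in hypoxia and 53.9% in normoxia.

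SUSD1, a sushi-domain membrane protein gene on chromosome 11 from 66491791 to 66699467, had 813, 807 and 888 intron CPM in hypoxia and 406, 443 and 415 in normoxia. Its exon reads were 71.3, 83.0 and 85.6 against 60.0, 62.4 and 63.8. Both were higher in hypoxia, the introns by 0.99 and the exons by 0.37 on the log2 scale. MYO7A, an unconventional myosin of hair cells and pigmented epithelium on chromosome 21 from 21539785 to 21624279, went the other way round. Its intron reads were 1625, 1512 and 1469 in hypoxia and 1599, 1617 and 1537 in normoxia, and its exon reads 15.5, 16.8 and 16.7 against 28.9, 27.7 and 30.1. The introns overlapped and the exons did not, so the MYO7A excess of 0.78 is one of lower exon reads. Per kb its introns held 2.01 times the exon reads.

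Neighbouring genes were examined for the 68 members that overlap none. A neighbour within 5 kb with at least 300 exon reads was found for 27 (39.7%), against 2417 of 6814 eligible genes without overlap (35.5%). The neighbour's own exon change had a median of -0.03, against -0.10 for the eligible genes. It was at least 0.5 for 6 of 27 (22.2%), 167 of 2417 eligible genes (6.91%) and 1 of 60 exon-excess genes. Beside TPM2 with CA9, and chosen after its values were seen, LRP1, an endocytic receptor, had an intron change of 1.12 and an exon change of 0.43, with NXPH4 starting 199 bases downstream on the same strand at an exon change of 2.37. Besides HAGHL, CTSD and CA9, given above, genes within 5 kb of other named members changed either way in exon reads. Higher were TRPC1 near PLS1 (0.87) and ESCO1 near GREB1L (0.27). Lower were HEPHL1 near PANX1 (-0.91), TRAF7 near RNF151 (-0.28), GDPD4 near MYO7A (-0.13) and a long non-coding RNA gene near RP9 (-0.11).

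The annotation in the files was set beside RefSeq models of another dog assembly, matched by symbol for 102 of the 114 genes and 8507 of the eligible ones. Of 60 matched members that overlap no gene in the files, 22 overlap a long non-coding RNA in RefSeq (36.7%), against 1430 of 6215 eligible genes (23.01%). With coding genes and pseudogenes included the shares were 30 of 60 (50%) and 2417 of 6215 (38.9%). Members free of overlap in both annotations numbered 30 of 102 (29.4%), against 3798 of 8507 (44.6%). HIF1A, POU2F1, PLS1 and SUSD1 are among those with a RefSeq long non-coding RNA across them.

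In gene structure the members were close to the eligible genes, and in read support they were thinner. The median span was 33820.5 bases against 32791, the median exon length 2302 against 2299 and the median number of exons 10 against 12. The median number of unique intron reads was 1209.5 against 1825, and of exon reads 2412 against 5084. Fewer than 1000 exon reads were found for 35 of 114 members (30.7%), 70 of 225 exon-excess genes (31.1%) and 871 of 9350 eligible genes (9.32%), so both tails held more thinly read genes. The median SD of the library ratios within a group was 0.18 among members and 0.14 among eligible genes.

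The intron share of gene reads was higher among the members, with a median of 40.3% against 33.2% in the exon-excess genes and 27.5% in all eligible genes. More intron than exon reads were found for 41 members (36.0%), 63 exon-excess genes (28.0%) and 1655 eligible genes (17.7%). Both measures pool the intron and exon reads of all 6 libraries, from which the genes were also chosen. They are therefore not independent of the selection. Fewer than 80% of intron reads mapped uniquely in 9 members (7.89%), against 3.75% of eligible genes. PHOSPHO2 had 378 intron reads although the files list 1 exon for it. By chromosome, the members were spread out, with 11 each on chromosomes 6 (of 457 eligible) and 9 (of 555) and 5 on chromosome 21 (of 159, 3.14%).

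**Figure D4:**
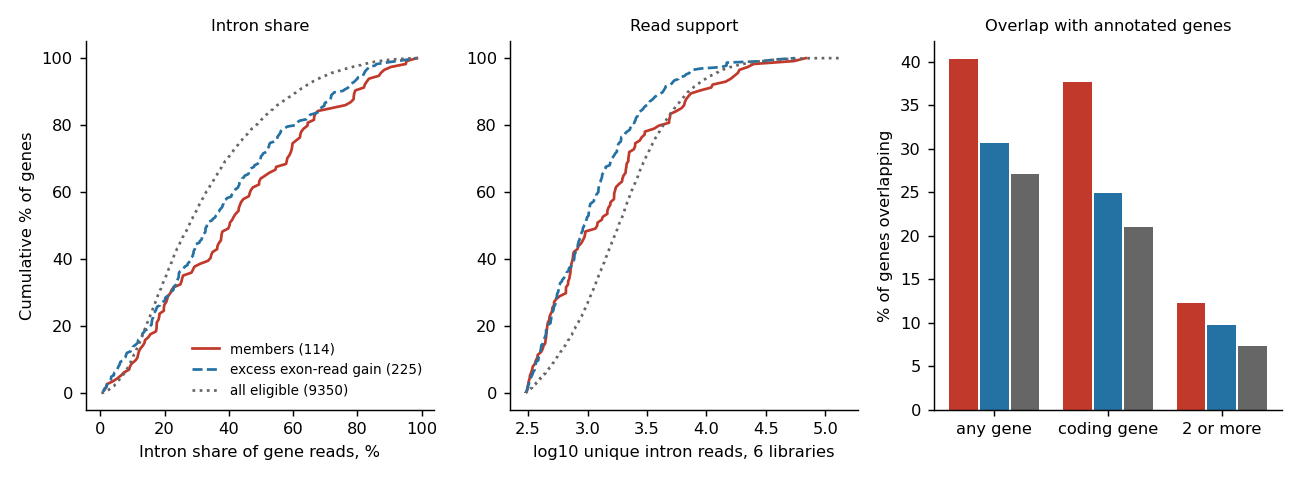
Cumulative share of genes by intron share of gene reads (left) and by log10 unique intron reads over 6 libraries (middle), and bars of the share of genes that overlap another annotated gene (right), for the 114 members, the 225 exon-excess genes and the 9350 eligible genes. The members' curve for the intron share lies to the right (median 40.3% against 27.5%), their read support lies lower, and 40.4% overlap another gene against 27.1%. The intron share pools reads from which the genes were also chosen, so it is not independent of the selection.

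Lists of RNA-processing genes, many of which are known for regulated introns, held none of the 114. At the 1.22% of all eligible genes that were selected, lists of this size would hold few or none, so nothing is read from these counts. Of 27 eligible SR proteins, SR-like factors and CLK kinases 0 were selected, at a median difference of 0.06 and a median intron share of 36.6%. None of 22 eligible hnRNP and core spliceosome genes was selected (median 0.05), nor of 21 cleavage and polyadenylation genes (-0.03) or 18 exosome and nonsense-mediated decay genes (0.04). The same held for 16 oxygen-dependent demethylases (-0.04), 10 clock genes (-0.05), 19 DNA repair genes (-0.06) and 11 melanocyte genes (-0.16). KDM7A, a histone demethylase, and OCA2, a melanosome transporter, leaned towards exon reads, with differences of -0.72 and -0.51.

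The threshold cut through a dense range of values. Just inside it lay GREB1L at 0.508, PGBD1 at 0.506 and S100A13 at 0.501, and just outside lay USP5 at 0.498, GINS2 at 0.497 and DEGS1 at 0.496. PGBD1, a transposase-derived gene, had a junction change of 0.18, above its intron change of 0.06. It had a difference of 0.29 without hypoxia replicate 3 and 0.33 without normoxia replicate 3. When each library was left out in turn, 68 of the 114 genes passed in all 6 settings and 46 dropped out in at least 1. The median number of unique intron reads was 1691.5 in the former and 735 in the latter.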

How the data were processed

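Per the labels, poly(A)-selected RNA of CMM10 cells was sequenced in 3 hypoxia and 3 normoxia libraries. The deposited counts are, per the file headers, exon, exon-exon, intron and gene reads for each gene, as total and unique reads, on CanFam3.1 per the submitters' processing notes. Aligner and counter: not given in the sources used here. Exon and unique intron reads were scaled to CPM of their own totals, and members chosen as stated above. The members and gene lists were chosen with earlier results of these data known.

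Calls over all genes came from edgeR 4.0.16 in R 4.3.3 (quasi-likelihood, robust, TMM, filterByExpr, Benjamini-Hochberg adjusted p below 0.05). Calls in intron reads and the intron against exon fit used total intron reads, unlike the selection. The fit took both read types of each library, with the library as a block. On counts simulated with the same fixed dispersion for every gene, this fit recovered 20% of genes changed 1.25-fold. It recovered 80% of those changed 1.5-fold and 98% of those changed 2-fold. The spread in the real libraries differed between genes, so these shares do not give the recovery in the data. Named genes were the 10 largest excesses without overlap and 6 with it, list members, the 6 with the most intron reads and 3 on either side of the threshold. Others are said to be chosen after their values were seen. RefSeq models (UU_Cfam_GSD_1.0), matched by symbol, gave overlaps only. No sequences were used.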

Additional observations from a re-analysis of the deposited data

How the results depend on the processing

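The number of selected genes, 114, rested most on its thresholds: it was 242 with at least 100 reads of each type, 51 with at least 1000, 14 at a difference of at least 1, and 68 without overlapping genes. Leaving out 1 library gave 142 to 162 genes, of which 95 to 104 were among the 114. Total intron reads gave 112, of which 100 were among the 114. Unique exon reads gave 112, all among the 114, and TMM factors gave 144, which held all 114. Exon-exon in place of exon reads, an alternative chosen after seeing the data, gave 135, of which 76 were shared.

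Calls of an intron change that differed from the exon change numbered 695 by edgeR and 340 by DESeq2, and 445 to 547 when 1 library was left out, the lowest without hypoxia replicate 2. With library size in place of TMM factors, the higher and lower calls moved from 328 and 367 to 242 and 501, in intron reads from 2588 and 2173 to 1929 and 3571, and in gene reads from 3778 and 3761 to 3076 and 4862. The share of higher calls in exon reads moved from 50.6% to 38.9%.

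The labels do not say whether equal replicate numbers pair the libraries, and the correlations cannot settle it. In gene reads those of same-numbered deviations were -0.087, -0.013 and -0.031, against -0.061 to 0.090 for differently numbered ones. In the ratio of intron to exon reads they were -0.027, 0.044 and -0.008, against -0.057 to 0.064. With a replicate block 118 genes were selected, and the calls were 7562 in gene, 6429 in exon and 4851 in intron reads and 664 in the intron against exon fit. Of 250 values of 25 named members under 10 alternatives, 0 changed sign and 12 fell below 0.5, for GREB1L, PGBD1, S100A13 and STC2. Exon-exon reads in place of exon reads were not among these 10 alternatives. With them the sign turned for at least BRICD5 and PGBD1, whose junction changes, given above, exceeded their intron changes. GSS (0.85 with total intron reads) and MDM2 (0.61 with TMM factors) moved by more than the SD of their library ratios. Depth limits members with few reads of a type, such as RNF151 (313 intron reads) and TPM2 (320).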
